A study of Mus musculus with 2 samples.

Results

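The genes described here are 32 of the 31053 genes counted in both libraries. They comprise 17 enzymes of glycolysis and 15 transporters, regulators and targets of the hypoxia response, and they were listed by name from their known roles. Each was followed in every cell type that marker genes could gate with at least 50 cells in both libraries, with enzymes kept apart from the hypoxia group and dividing cells apart from other cells.

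Tumor-infiltrating immune cells (TIIs) came from B16-OVA tumors, a mouse melanoma line that expresses ovalbumin, grown under the skin of wild-type C57BL/6J (B6) mice. The methods give male mice of 8 to 12 weeks. The control mice received PBS, and the other group was injected intraperitoneally with 10.5 mg creatine per animal each day. In both groups, 4 tumors taken on day 14 were pooled, live CD45.2+ cells were sorted, and 10000 cells were loaded for 3′ single-cell RNA sequencing (scRNA-seq). Each group is therefore 1 library of pooled animals, with no replicates, so no test was possible and a difference between the libraries cannot be told apart from one between pools or between preparations. The label that describes treatment reads as creatine injection for both libraries, and the control was assigned by its title and by PBS as its treatment. Other passages of the methods and legends give day 10 and 5 mice.

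Glycolysis splits glucose into pyruvate in the cytosol and yields ATP without oxygen, and lactate dehydrogenase then turns pyruvate into lactate. When oxygen is short, the prolyl hydroxylases that mark HIF-1α for destruction are inactive, HIF-1 accumulates, and it raises transcription of most glycolysis enzymes together with genes for glucose uptake, lactate export, mitophagy and angiogenesis. Activated T cells, macrophages and dendritic cells (DCs) also raise glycolysis in the presence of oxygen, and tumors such as melanoma hold poorly perfused regions.

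The control library kept 7241 cells and the creatine library 6229, with medians of 7688 and 8475 unique molecular identifiers (UMIs) per cell, and 30 and 29 of these carried a barcode found in both libraries. Marker gates, which used no member gene, placed 5647 control and 5152 creatine cells (78.0% and 82.7%). The gated cells included 2494 and 2015 CD8 T cell-like, 913 and 346 macrophage-like, 685 and 1120 NK cell-like, 484 and 701 classical monocyte-like, 360 and 226 Treg-like, 203 and 236 CD4 T cell-like, 123 and 75 cDC2-like, 86 and 67 cDC1-like, 72 and 151 nonclassical monocyte-like and 52 and 97 γδ T cell-like cells, control first. All 8 classical monocyte markers, all 10 macrophage markers and both CD8 genes held UMIs in their types in both libraries, and *Ptprc*, which encodes CD45, was detected in each type. The gates used some of these same markers, so their presence is no independent check of a type. It also does not set types apart, since CD8 T cell-like cells held UMIs of all 10 macrophage markers in both libraries. Per type, the UMIs of each library were added up and are given as CPM (the share of that type's UMIs times 1e+06), and a log2 ratio of creatine over control is given for a gene with at least 100 UMIs in the type over both libraries. Intervals are exact 95% intervals and cover counting error only. Since UMIs are counted at the 3′ end, levels are compared between cells and not between genes, and fewer expressing cells cannot be told apart from less RNA per cell in a summed level.

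Classical monocyte-like cells, gated by genes such as *Ly6c2*, *Vcan* and *Ccr2*, had the lowest median ratio of the 10 cell types for both groups of genes. Of 15 enzymes with enough UMIs, 14 were lower in the creatine library, 11 of them by more than 1.5-fold, with a median log2 ratio of −0.94. Of 13 genes of the hypoxia group, 11 were lower and all 11 by more than 1.5-fold, with a median of −1.42. Over all 7522 genes with enough UMIs in these cells, 45.7% were lower, 7.11% were lower by more than 1.5-fold, and the median was 0.04. Summed over the list, the enzymes gave 7842 CPM in the control library and 4217 CPM in the creatine library, and the hypoxia group 1833 and 745 CPM.

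The lowest ratios belonged to hypoxia targets. *Vegfa*, which encodes the main angiogenic growth factor, was at 48.9 CPM (42.3 to 56.3) in the control library and 5.37 CPM (3.76 to 7.43) with creatine, a log2 ratio of −3.19 (−3.74 to −2.67). *Hilpda*, whose product blocks lipolysis at lipid droplets, was at 178 CPM (165 to 192) in the control library and 21.8 CPM (18.4 to 25.6) with creatine, a log2 ratio of −3.03 (−3.30 to −2.77). *Egln3*, which encodes the HIF prolyl hydroxylase PHD3, was at 43.4 CPM (37.2 to 50.4) in the control library and 5.82 CPM (4.14 to 7.95) with creatine, a log2 ratio of −2.90 (−3.44 to −2.39). The creatine values rest on 36, 146 and 39 UMIs, in that order, and in none of the 3 genes do the intervals of the libraries overlap. These intervals cover counting error only. The share of all genes whose intervals do not overlap was not taken, so whether this is particular to the 3 genes was not tested.

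*Bnip3*, a mitophagy receptor of the outer mitochondrial membrane, was at 157 against 46.7 CPM, control first, with a log2 ratio of −1.75 (−1.95 to −1.55). *Ndrg1*, a stress response gene induced by low oxygen, was at 110.1 against 37.1 CPM, with a ratio of −1.57 (−1.80 to −1.34). *Mif*, which encodes macrophage migration inhibitory factor, was at 623 against 183 CPM, with a ratio of −1.76 (−1.86 to −1.67). *P4ha1*, a collagen prolyl hydroxylase, showed a smaller difference, 67.4 against 40.4 CPM, and a ratio of −0.74 (−0.99 to −0.49). The genes around the pathway were also lower in the creatine library. For *Slc2a1*, which encodes the glucose transporter GLUT1, the levels were 120.1 against 51.3 CPM and the ratio was −1.23 (−1.43 to −1.02). For *Slc16a3*, which encodes the lactate exporter MCT4, they were 145 against 76.6 CPM and −0.92 (−1.10 to −0.75). *Pdk1*, a kinase that inhibits pyruvate dehydrogenase, gave 47.9 against 17.9 CPM and −1.42 (−1.76 to −1.08). *Pfkfb3*, which makes the activator of phosphofructokinase, gave 72.9 against 27.3 CPM and −1.42 (−1.69 to −1.15).

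Both of the other hypoxia group genes with enough UMIs were not lower. *Hif1a* itself, the oxygen-regulated subunit of HIF-1, was at 162 against 167 CPM, control first, a log2 ratio of 0.04 (−0.10 to 0.18) whose interval spans 0. *Pfkfb4*, a second bifunctional enzyme of the same activator, was at 48.7 against 60.5 CPM, a ratio of 0.31 (0.06 to 0.57). *Slc2a3* (GLUT3) and *Adm*, which encodes the vasodilator peptide adrenomedullin, held 44 and 17 UMIs over both libraries and received no ratio.

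Among the enzymes, *Tpi1* had the lowest ratio. This enzyme, which interconverts the triose phosphates, was at 586 CPM (562 to 610.0) in the control library and 221 CPM (209.9 to 233) with creatine, a log2 ratio of −1.41 (−1.50 to −1.31). *Eno1* (enolase) was at 526 against 233 CPM, with a ratio of −1.18 (−1.27 to −1.08), *Ldha* (lactate dehydrogenase A) at 718 against 328 CPM, with −1.13 (−1.21 to −1.05), and *Pgk1* (phosphoglycerate kinase) at 603 against 275 CPM, with −1.13 (−1.22 to −1.04). *Pgam1* (phosphoglycerate mutase), *Gapdh* and *Aldoa* (aldolase A) had ratios of −0.96, −0.95 and −0.94, and *Pkm* (pyruvate kinase) one of −0.71. *Aldoc* (aldolase C), the lower of both aldolases by ratio, stood at −1.35 (−1.87 to −0.85).

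Ratios also differed between isoenzymes. *Hk2*, the inducible hexokinase, was at 332 against 202 CPM, a log2 ratio of −0.71 (−0.82 to −0.60), and the ratios of *Pfkl* (liver phosphofructokinase) and *Gpi1* (glucose phosphate isomerase) were −0.60 and −0.48. *Hk1* and *Hk3*, the other hexokinases, had intervals that span 0, with ratios of −0.18 (−0.46 to 0.10) and −0.06 (−0.26 to 0.15). *Pfkp*, the platelet phosphofructokinase, was the single enzyme above 0, at 136 against 154 CPM and a ratio of 0.17 (0.02 to 0.32). *Pfkm* and *Eno2*, the muscle and neuronal isoenzymes, held 25 and 6 UMIs in all and received no ratio. The 50-base windows at the 3′ end of *Eno1* and *Gapdh* occur in other transcripts to 38.8% and 35.9%, so part of their UMIs could belong to copies or be lost to them. Without both genes the enzyme median was −0.71.

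**Figure D1:**
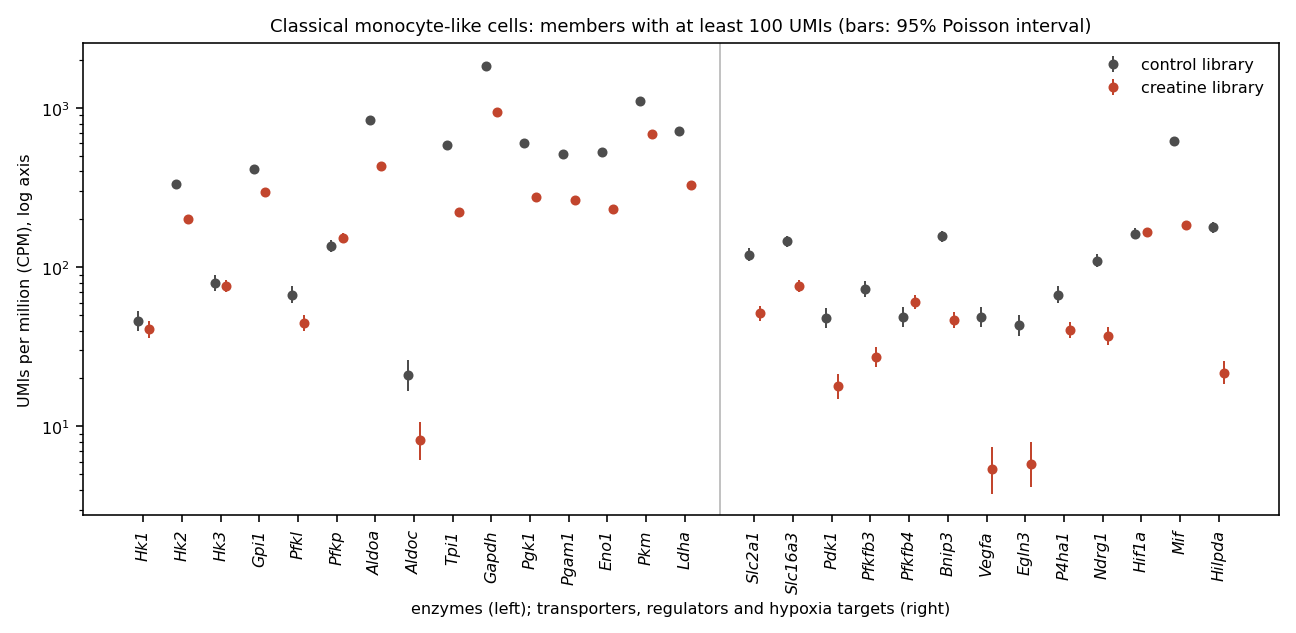
Level of each member with at least 100 UMIs in classical monocyte-like cells, in CPM on a log axis, with enzymes on the left and the hypoxia group on the right. Grey points are the control library, red points the creatine library, and bars the 95% Poisson intervals. The red points lie below the grey ones for 25 of the 28 genes, farthest for *Vegfa*, *Hilpda* and *Egln3*, and *Hif1a* lies at 162 and 167 CPM.

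Several marker levels of these cells moved with the ratios, and their part in the ratios was not tested beyond the splits given here. From the control to the creatine library, the 8 classical monocyte markers summed to 7542 and 10907 CPM and 7 of them were higher, while the 10 macrophage markers summed to 5329 and 3730.0 CPM and none was higher. MHC class II transcripts (*H2-Ab1*, *H2-Aa* and *Cd74*), which rise as monocytes mature in tissue, summed to 14182 and 6258 CPM. C1q transcripts were at 138 and 66.2 CPM, against 10356 and 11070.1 CPM in macrophage-like cells. The gates set this difference, since cells with at least 10 C1q UMIs were not placed among the classical monocyte-like cells. The 8 melanoma markers summed to 239.6 and 74.3 CPM, and mitochondrial genes to 40977 and 37779.7 CPM. Median depth was 7668.5 and 9355.0 UMIs per cell.

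The ratios were also taken within cells of like MHC class II level, a split chosen after the results were seen. No share over all genes was taken within these ranges, so whether the counts are particular to the members was not tested. In cells with under 1% of UMIs from the 3 MHC class II genes, the enzyme median was −0.77, with 13 of 14 lower, and the hypoxia group median −1.35, with 10 of 12 lower. In cells at or above 1%, which made up 45.1% (control) and 19.9% (creatine) of the cells with at least 2000 UMIs, the medians were −0.51, with 13 of 15 lower, and −0.89, with 11 of 13 lower. *Hilpda* was at 177 and 9.02 CPM in the low cells and at 179 and 66.3 CPM in the high cells, and *Vegfa* at 41.3 and 3.65 CPM and at 56.2 and 11.4 CPM, control first. *Hif1a* stayed near equal in both, with log2 ratios of 0.09 and 0.10. In cells with no C1q UMI the medians of the enzymes and of the hypoxia group were −0.80 and −1.40.

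To describe the targets per cell, each cell was thinned to 2000 UMIs and scored for 7 targets (*Bnip3*, *Hilpda*, *Ndrg1*, *Egln3*, *Vegfa*, *Slc2a1* and *Pdk1*, chosen with their values known). In the control library, 105 of 461 classical monocyte-like cells held UMIs of at least 2 targets, which is 22.8% (19.0 to 26.9). In the creatine library these were 24 of 685, or 3.50% (2.26 to 5.17). At least 3 targets were held by 66 control and 10 creatine cells, or 14.3% and 1.46%. Without thinning, at least 2 targets were held by 49.0% and 22.3% of the cells. The cells left out for a depth below 2000 UMIs numbered 23 and 16.

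Among single targets, a *Hilpda* UMI was found in 16.5% of the thinned control cells and 2.48% of the creatine cells, and a *Vegfa* UMI in 8.24% and 0.876%. A *Hif1a* UMI was found in 27.1% and 24.7%, with overlapping intervals. These shares count cells with a UMI at this depth, not cells that express the genes, and repeat the ratios by which the targets were picked. No gated type can be taken to lack all 7 genes, and RNA free in the droplets adds to every share. NK cell-like cells, at a median of 3999 and 5523 UMIs before thinning, gave 2.93% (control) and 1.65% (creatine). In macrophage-like cells it was 24.8% and 19.4%, with intervals that overlap, for cDC1-like cells 11.6% and 3.17%, for cDC2-like cells 9.92% and 4.00%, for Treg-like cells 11% and 8.68% and for CD8 T cell-like cells 3.79% and 2.65%.

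**Figure D2:**
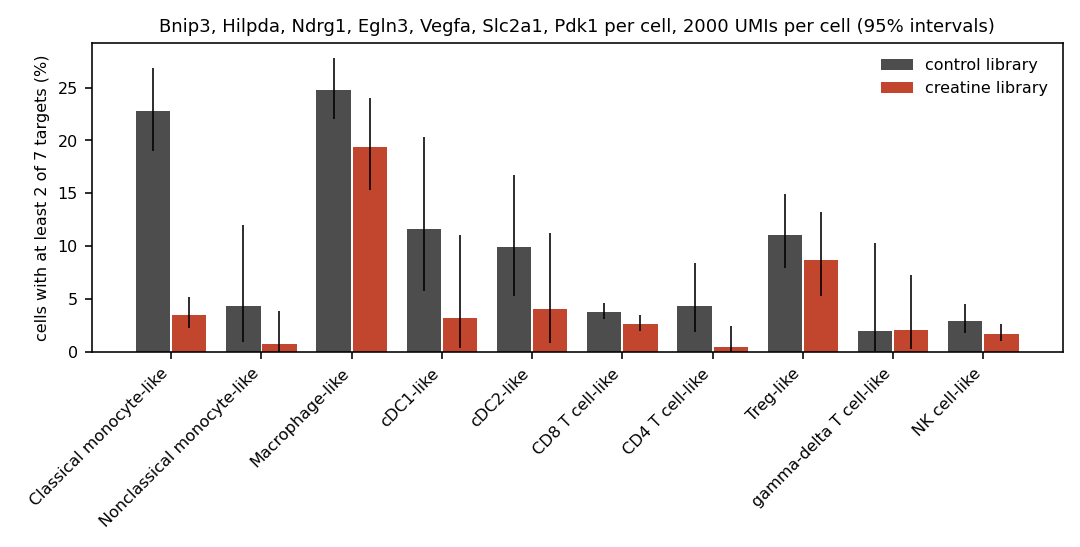
Percent of cells with UMIs of at least 2 of the 7 hypoxia targets after thinning each cell to 2000 UMIs, by cell type, as bars from 0 with exact 95% intervals. Grey bars are the control library and red bars the creatine library. Control classical monocyte-like cells stand at 22.8%, close to the 24.8% of control macrophage-like cells, and creatine classical monocyte-like cells at 3.50%.

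Other genes of the pathway, from lists chosen with earlier results of these data known, differed between branches in the same cells. Of 20 other hypoxia targets with enough UMIs, 18 were lower in the creatine library, 13 by more than 1.5-fold, with a median log2 ratio of −1.13. The lowest of them were *Arg1* (arginase 1), at 326 and 24.3 CPM, *Nos2* (inducible nitric oxide synthase), at 28.2 and 6.86 CPM, and *Mt1* (a metallothionein), at 283 and 68.7 CPM, all of which also mark states of myeloid cells. The highest, *Cited2*, a negative regulator of HIF, had a ratio of 0.11. All 7 genes of the pentose phosphate pathway, which branches off after the first step, passed the UMI limit, and none was lower by more than 1.5-fold, with a median of 0.12 that reached 0.57 for *G6pdx*. The 8 genes of pyruvate entry into mitochondria had a median of 0.13, and none was past 1.5-fold. The 9 other glycolysis and sugar genes had a median of 0.17, although *Pgm2*, a phosphoglucomutase, stood at −1.08. Of 5 HIF subunits and regulators, *Egln1*, the main HIF prolyl hydroxylase, was lower by more than 1.5-fold at −0.81, and the median was −0.13. Of 75 nuclear-encoded subunits of oxidative phosphorylation, 56 were lower but 1 by more than 1.5-fold, with a median of −0.12.

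The core of the hypoxia response element was written as ACGTG or GCGTG. It was searched for on both strands of the 250 bases before each RefSeq transcription start (GRCm38.p6). The members include known hypoxia targets, so a share of matches above that of all promoters can follow from how they were listed. A link of the matches to the ratios was not tested. Windows were found for 30 of the 32 genes. A match was present in 21 of the 30 (70.0%), in 11 of 17 enzymes (64.7%) and 10 of 13 of the hypoxia group (76.9%), against 38.6% of 27025 promoters of all genes. At least 2 matches were present in 12 of the 30 members and in 13.8% of all promoters, and CACGTG, which holds ACGTG on both strands and was counted once, in 13.3% and 6.05%. Median GC content was 58.8% and 52.0%, and motifs with CG are more frequent in GC-rich windows. A match is a description of letters and not a bound site. *Vegfa*, *Hilpda* and *Mif*, among the genes with the lowest ratios, and *Tpi1* and *Aldoa* had no match in this window, which says nothing of elements elsewhere.

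Windows of 4 members are shown, 5′ to 3′ on the strand of the gene, with matches on either strand in capitals. *Bnip3* had the most matches of any member (4, at chr7:138909507-138909756 on the minus strand) and *Ldha* the most of the enzymes that held CACGTG (3, at chr7:46845554-46845803 on the plus strand). *Egln3* had 1 match (chr12:54203875-54204124, minus strand) beside one of the lowest ratios, and *Hif1a*, whose ratio was near 0, had 2 (chr12:73907617-73907866, plus strand).
*Bnip3*: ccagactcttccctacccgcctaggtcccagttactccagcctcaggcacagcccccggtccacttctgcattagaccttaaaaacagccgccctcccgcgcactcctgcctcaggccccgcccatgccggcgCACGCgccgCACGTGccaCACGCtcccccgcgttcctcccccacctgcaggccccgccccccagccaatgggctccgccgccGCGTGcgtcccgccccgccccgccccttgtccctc
*Ldha*: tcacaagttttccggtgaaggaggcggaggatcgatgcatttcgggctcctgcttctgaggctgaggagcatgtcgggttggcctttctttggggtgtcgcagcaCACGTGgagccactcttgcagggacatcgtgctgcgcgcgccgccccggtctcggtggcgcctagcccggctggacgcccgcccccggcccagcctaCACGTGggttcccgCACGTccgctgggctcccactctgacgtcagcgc
*Egln3*: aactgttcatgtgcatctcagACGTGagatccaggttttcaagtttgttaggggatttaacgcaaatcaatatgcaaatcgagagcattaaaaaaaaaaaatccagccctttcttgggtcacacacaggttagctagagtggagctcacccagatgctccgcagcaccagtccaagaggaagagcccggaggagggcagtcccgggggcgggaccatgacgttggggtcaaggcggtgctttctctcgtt
*Hif1a*: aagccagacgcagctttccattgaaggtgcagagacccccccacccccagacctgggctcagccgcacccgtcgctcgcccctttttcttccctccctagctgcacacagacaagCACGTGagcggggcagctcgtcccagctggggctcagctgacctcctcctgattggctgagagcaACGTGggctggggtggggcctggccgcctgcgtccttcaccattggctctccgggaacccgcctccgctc

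All 4 shown windows hold a match, with log2 ratios in classical monocyte-like cells of −1.75, −1.13, −2.90 and 0.04 in the order printed, so genes with a match had both low ratios and one near 0. The *Ldha* and *Hif1a* windows lie within the GENCODE M21 spans of their genes (chromosome 7, 46841475 to 46855627, and chromosome 12, 73901375 to 73947530), so that these RefSeq starts are not the first of the spans.

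DCs take up tumor antigen and present it to T cells. In cDC2-like cells, gated by genes such as *Cd209a* and *Mgl2*, all 13 enzymes with enough UMIs were lower in the creatine library, 7 by more than 1.5-fold, with a median log2 ratio of −0.65. Of 7 genes of the hypoxia group, 6 were lower, 5 by more than 1.5-fold, and the median was −1.11. Of all 3383 genes, 44.7% were lower, 6.41% by more than 1.5-fold, and the median was 0.05. *Hilpda* was at 54.9 against 19.3 CPM, control first, with a ratio of −1.51 (−2.33 to −0.77), and *Aldoc* at 71.5 against 24.6 CPM, with −1.54 (−2.25 to −0.88). *Mif* was at 529 CPM (493 to 566) in the control library and 200.3 CPM (173 to 231) with creatine, a ratio of −1.40 (−1.64 to −1.17). *Eno1* was at 428 against 194 CPM, with −1.14 (−1.39 to −0.91), and *Pgk1* at 345 against 182 CPM, with −0.92 (−1.18 to −0.67). *Pfkp* and *Hk2* had intervals that span 0, and *Hif1a* was at 93.9 against 117 CPM, a ratio of 0.31 (−0.06 to 0.68).

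In the same cells, the classical monocyte markers summed to 1816 CPM in the control library and 4863 CPM in the creatine library, MHC class II genes to 35441 and 26168 CPM, and the cDC2 markers to 1696 and 1487 CPM. Dividing cell genes had a median of −1.74. Their part in the ratios was not tested. Cells with UMIs of at least 10 of 30 dividing cell genes numbered 15 of 123 in the control library and 2 of 75 in the creatine library. Among the other 108 and 73 cells, the medians were −0.72 for the enzymes and −1.31 for the hypoxia group. So few cells were taken out, and cells with fewer dividing cell genes stayed in, that these medians cannot show the part of division. Without *Eno1* and *Gapdh*, the enzyme median was −0.45.

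cDC1-like cells, gated by *Xcr1* or *Clec9a* with other markers, gave smaller differences. Of 14 enzymes, 13 were lower, 3 by more than 1.5-fold, with a median of −0.48, and of 5 hypoxia group genes 4 were lower, 3 by more than 1.5-fold, with a median of −0.62. Among all 3387 genes, 45.8% were lower, 5.67% by more than 1.5-fold, with a median of 0.03. *Bnip3* was at 58.9 against 22.2 CPM, a ratio of −1.41 (−2.15 to −0.72), *Eno1* at 281 against 159 CPM, a ratio of −0.82 (−1.09 to −0.55), and *Ldha* at 850.0 against 571 CPM, a ratio of −0.57 (−0.72 to −0.43). *Pfkp* was higher in cDC1-like cells than in any other type, at 494 and 357 CPM, and its ratio was −0.47 (−0.65 to −0.28). Opposite to the rest, *Hk3* was at 32.5 against 70.7 CPM, a ratio of 1.12 (0.57 to 1.68), and was past 1.5-fold, beside 11.2% of all genes. *Hif1a*, at 63.6 against 90.8 CPM and a ratio of 0.51 (0.08 to 0.95), was higher but within 1.5-fold.

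The cDC1-like cells of the libraries differed in division and in markers. Cells with at least 10 dividing cell genes numbered 35 of 86 in the control library and 9 of 67 in the creatine library. Among the other 51 and 58 cells, the enzyme median was −0.30, with all 11 enzymes lower and 2 of them by more than 1.5-fold beside 3.53% of all genes, and too few hypoxia group genes (2) remained for a description. Classical monocyte markers summed to 1216 and 2991 CPM and melanoma markers to 339.7 and 28.3 CPM, control first. The cDC1 markers themselves summed to 2808 and 2200 CPM, and the cDC2 markers to 178 and 407 CPM. Macrophage markers summed to 341 and 707 CPM, with 4 of 10 higher in the creatine library, and C1q transcripts to 58.9 and 36.3 CPM. The part of these marker levels in the ratios, that of *Hk3* included, was not tested.

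Macrophage-like cells, gated by at least 10 C1q UMIs, had medians closer to 0 than classical monocyte-like cells. Of 15 enzymes, 11 were lower, 2 by more than 1.5-fold, with a median log2 ratio of −0.13. Of 15 hypoxia group genes, 13 were lower, 3 by more than 1.5-fold, with a median of −0.40. Among all 9331 genes, 51.9% were lower, 2.67% by more than 1.5-fold, and the median was −0.01. *Egln3* was at 15.7 against 8.46 CPM, a ratio of −0.89 (−1.31 to −0.49), and *Hilpda* at 129.6 CPM (124 to 135) in the control library and 75.3 CPM (69.3 to 81.7) with creatine, a ratio of −0.78 (−0.92 to −0.65). *Adm*, which passed the UMI limit in these cells alone, was at 10.3 against 5.98 CPM, a ratio of −0.79 (−1.29 to −0.30). *Eno1* was at 483 against 321 CPM, with −0.59 (−0.66 to −0.52), and *Bnip3* at 169 against 124 CPM, with −0.45 (−0.56 to −0.34).

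Other members of macrophage-like cells were nearly level or higher. *Gapdh* was at 2086 against 2214 CPM, a ratio of 0.09 (0.06 to 0.11), and *P4ha1* at 77.0 against 77.0 CPM. *Vegfa*, at 33.7 against 29.0 CPM, had an interval that reaches 0. *Hif1a* was at 100.3 CPM (95.3 to 105) in the control library and 141 CPM (133 to 149.7) with creatine, a ratio of 0.49 (0.38 to 0.61), while most of its listed targets were lower. *Hk3* was at 142 CPM (137 to 149) in the control library and 232 CPM (221 to 243) with creatine, a ratio of 0.70 (0.61 to 0.79), and was the single member higher by more than 1.5-fold, beside 2.19% of all genes. The macrophage markers summed to 20590.0 and 22837 CPM and the melanoma markers to 580.1 and 651 CPM, and median depth was 14555.0 and 19204.5 UMIs.

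Nonclassical monocyte-like cells, gated by genes such as *Ace* and *Adgre4*, held few UMIs. Their nonclassical monocyte markers summed to 3833 and 3329 CPM, control first, with 1 of 7 higher in the creatine library. Classical monocyte markers summed to 4200 and 4759 CPM, with 6 of 8 higher, and macrophage markers to 4947 and 4134 CPM, with 2 of 10 higher. The part of these marker levels in the ratios was not tested. Of 11 enzymes, 8 were lower and 1 by more than 1.5-fold, with a median of −0.17, beside 49.2% and 3.73% of 2711 genes. That enzyme was *Tpi1*, at 256 against 159 CPM, a ratio of −0.69 (−1.04 to −0.33). The 5 hypoxia group genes had a median of 0.15, and only *Slc16a3*, at 160.3 against 113 CPM, had an interval below 0. The direction of the group depended on how it was summarised, since the summed level of all 15 genes was lower, at 691 and 536 CPM, a log2 ratio of −0.37 (−0.57 to −0.16), and the median with no filter on low counts was −1.06. The lactate exporter *Slc16a3* was at its highest level of the 10 types in these cells in both libraries, as was *Pfkfb4*, at 59.2 and 66.4 CPM.

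In lymphocytes the medians given here lay closer to 0 than in classical monocyte-like cells, although single members were past 1.5-fold in all but γδ T cell-like cells. In CD8 T cell-like cells, with the most UMIs of any type, 14 of 16 enzymes were lower, 2 by more than 1.5-fold, with a median of −0.14, and 10 of 12 hypoxia group genes were lower, 2 by more than 1.5-fold, with a median of −0.22. Of all 10529 genes, 40.5% were lower, 3.25% by more than 1.5-fold, and the median was 0.04. *Eno1* was at 507 CPM (499.7 to 515) in the control library and 327 CPM (320.4 to 333) with creatine, a ratio of −0.63 (−0.67 to −0.60). *Hilpda* was at 50.2 against 30.1 CPM, a ratio of −0.74 (−0.85 to −0.62), and *Ndrg1* at 10.3 against 6.04 CPM, a ratio of −0.76 (−1.03 to −0.50). *Ldha* and *Tpi1* had the same ratio of −0.14, while *Gapdh*, *Hk1* and *Slc16a3* were above 0 at 0.12, 0.18 and 0.17. *Hif1a* was at 149.6 against 146 CPM, and *Pfkm*, which passed the limit in these cells alone, at 4.45 against 4.39 CPM. The second enzyme past 1.5-fold, *Hk3*, held 93 and 47 UMIs, a level of 1.95% and 0.655% of that in macrophage-like cells, and C1q transcripts were at 0.678% and 0.299% of theirs, so that RNA free in the droplets cannot be told apart from *Hk3* of these cells.

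Treg-like cells had enzyme and hypoxia group medians of −0.15 and −0.10, with 3 of 24 members lower by more than 1.5-fold beside 3.67% of 5860 genes. These were *Ndrg1*, at 23.3 against 11.3 CPM with a ratio of −1.04 (−1.80 to −0.35), *Hilpda*, at −0.82, and *Eno1*, at −0.61. *Ldha* was at 1308 against 944 CPM, a ratio of −0.47 (−0.55 to −0.39), and *Mif* at 938 against 679 CPM, with the same size of difference. *Hif1a* was higher in Treg-like cells than in any other type and above 0 in ratio, at 439 CPM (416 to 462) in the control library and 509 CPM (477 to 541) with creatine, a ratio of 0.21 (0.10 to 0.33). Dividing cells were more frequent in the control library, with 112 of 360 cells against 41 of 226 by the rule of 10 genes, and without them the medians were −0.36 and −0.28.

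NK cell-like cells had medians of −0.14 for 13 enzymes and −0.29 for 12 hypoxia group genes, and 5 of the 25 members were lower by more than 1.5-fold beside 2.43% of 7523 genes. They were *Ndrg1*, at 28.1 against 12.7 CPM and −1.15 (−1.59 to −0.71), *Hilpda*, at −0.87, *Bnip3*, at −0.80, *Pdk1*, at −0.75, and *Hk2*, at −0.63. In control NK cell-like cells *Hk2* was at 5.33% of its macrophage-like level and C1q transcripts at 1.52% of theirs. C1q transcripts summed to 157 and 57.4 CPM in NK cell-like cells, control first, and the part of RNA free in the droplets was not tested. *Vegfa* was at 19.2 against 24.2 CPM, with an interval that spans 0, so the low *Vegfa* ratio of classical monocyte-like cells was not seen here. In CD4 T cell-like cells, 2 of 15 members, *Pdk1* at −0.93 (−1.46 to −0.40) and *Eno1* at −0.63 (−0.87 to −0.39), were past 1.5-fold, beside 1.8% of 3270 genes. In γδ T cell-like cells, 0 of 10 members were past it beside 3.46% of 1270 genes, no interval lay off 0, and the stricter gate kept 5 control cells.

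**Figure D3:**
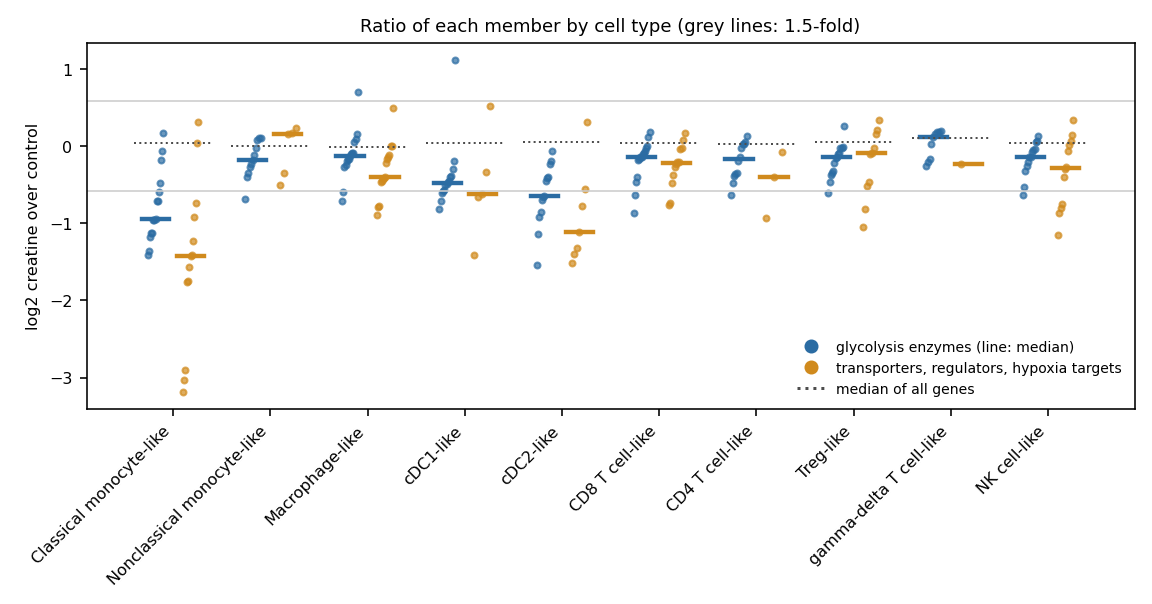
Log2 ratio of creatine over control for each member with at least 100 UMIs, by cell type, with enzymes in blue and the hypoxia group in orange. Short coloured lines are medians, dotted lines the medians of all genes, and grey lines mark 1.5-fold. Both groups of points lie lowest in classical monocyte-like cells, at medians of −0.94 and −1.42, and near the dotted lines in γδ T cell-like cells.

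Read by gene, some members were lower in every type in which they could be measured. *Eno1* and *Tpi1* were lower in 10 of 10 types, with intervals below 0 in 9 each, and *Eno1* was past 1.5-fold in 7. *Hilpda* was lower by more than 1.5-fold in 6 of 6 types. *Bnip3* and *Ndrg1* were lower in 7 of 7 types, *Slc2a1* and *Pdk1* in 6 of 6, *Hk2* in 8 of 8 and *Aldoc* in 6 of 6. These counts are over all cells of a type and need not hold within a state of division. In dividing macrophage-like cells by the rule of 10 genes, *Hk2* was at 294 against 346 CPM, control first, a ratio of 0.23 (0.12 to 0.35). The other genes just named were below 0 there, from −0.61 (*Eno1*) to −0.01 (*Slc2a1*). *Gapdh*, often used as a reference transcript, was lower in 5 types and higher in 5, with ratios from −0.95 to 0.13. Without mitochondrial and ribosomal protein genes in the total its ratio was below 0 in CD4 and γδ T cell-like cells too, and with equal weight per cell in CD4 T cell-like cells, so the sign there depends on the scaling. *Hif1a* was higher in 6 of 9 types, with an interval above 0 in 3 and below 0 in none. With equal weight per cell *Hif1a* was at −0.07 in classical monocyte-like cells in place of 0.04. All types of a library share one preparation, so these counts are not independent repeats. They were taken for the members only, with no share over all genes beside them, so whether they are particular to the members was not tested. Where a level was low, as for *Hk2* in NK cell-like cells, the part of RNA free in the droplets was not tested.

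**Figure D4:**
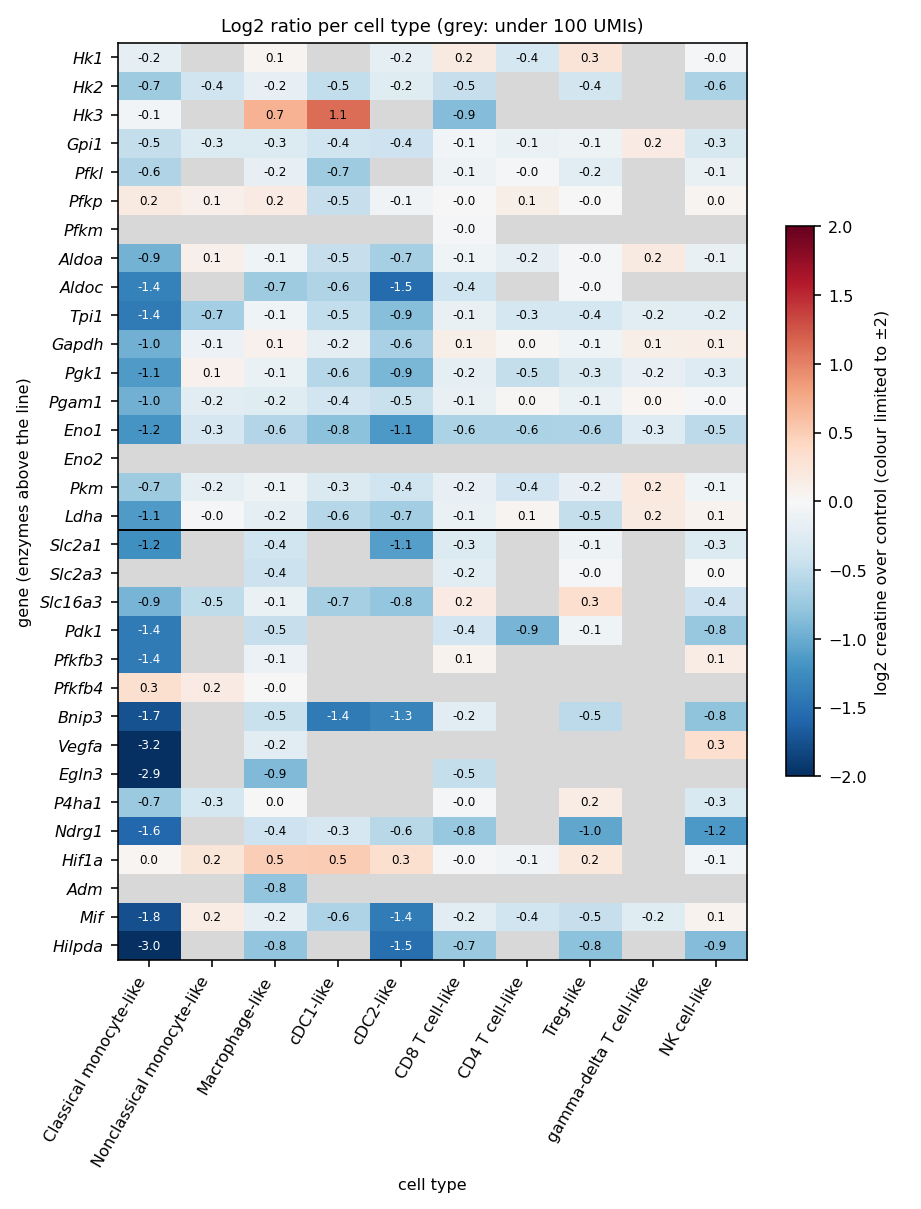
Log2 ratio of creatine over control for each of the 32 genes (rows, enzymes above the line) in each of the 10 cell types (columns), blue for lower and red for higher in the creatine library, with the value in each cell and colour limited to 2. Grey cells have under 100 UMIs. The rows of *Eno1*, *Tpi1*, *Hilpda* and *Bnip3* are blue wherever measured, and the row of *Hif1a* runs from −0.08 to 0.51.

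The other hypoxia targets, which are no members, were lower past 1.5-fold in fewer genes outside classical monocyte-like cells. In macrophage-like cells 5 of 27 were, beside 2.67% of all genes, with a median of −0.27, led by *Ddit4*, an inhibitor of mTORC1, at 19.5 and 7.68 CPM, while *Nos2* was higher, at 45 and 85.7 CPM, where it was lower in classical monocyte-like cells. In CD8 T cell-like cells 5 of 27 were, beside 3.25%, with a median of −0.11, and *Cited2* was the highest, at 63.7 and 120.8 CPM. In cDC2-like cells 4 of 8 were, beside 6.41%, with a median of −0.49, led by *Mt1*, at 342 and 135 CPM. The counts, each beside the share of all genes, were 2 of 15 in Treg-like (3.67%), 3 of 16 in NK cell-like (2.43%), 4 of 10 in CD4 T cell-like (1.8%), 2 of 8 in cDC1-like (5.67%), 2 of 7 in nonclassical monocyte-like (3.73%) and 0 of 4 in γδ T cell-like cells (3.46%). The subunits of oxidative phosphorylation stayed near 0 in each type, with medians from −0.17 in cDC2-like to 0.15 in γδ T cell-like cells.

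Levels also differed between cell types within a library. In the control library, *Hk2* was at 402 CPM in macrophage-like, 332 CPM in classical monocyte-like and 55.4 CPM in CD8 T cell-like cells, and *Bnip3* at 169, 157 and 27.0 CPM. The glucose transporters had unlike orders. *Slc2a3* (GLUT3) was at 80.9 CPM in CD8 T cell-like and 5.62 CPM in macrophage-like cells, whereas *Slc2a1* (GLUT1) was at 39.0 and 111 CPM. The intervals of these levels do not overlap, except for *Bnip3* in macrophage-like and classical monocyte-like cells. Of the 13 hypoxia group genes with enough UMIs in both types, 8 were higher in classical monocyte-like than in macrophage-like cells of the control library and 2, *Hif1a* and *Pfkfb4*, of the creatine library. *Hilpda* was at 178 and 129.6 CPM in the control library, classical monocyte-like cells first, and at 21.8 and 75.3 CPM in the creatine library, and *Vegfa* at 48.9 and 33.7 CPM and at 5.37 and 29.0 CPM. *Bnip3*, *Mif*, *Pdk1*, *Pfkfb3* and *P4ha1* were below the macrophage-like level in both libraries, *Mif* at 78.0% and 25.9% of it and *P4ha1* at 87.6% and 52.5%. Of the 15 enzymes, 4 were above that level among control cells and 0 among creatine cells. Those 4 were close to it, at 100.2% (*Pgk1*), 102.6% (*Aldoc*), 104.6% (*Hk1*) and 109.0% (*Eno1*). The counts of enzymes and of hypoxia group genes above it have no share over all genes beside them. Whether they are particular to the members was not tested.

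Dividing cells need glycolytic intermediates for growth, and they were set apart by 30 cell cycle genes that are not members. UMIs of at least 2 of these genes were present in 86.3% of control and 84.9% of creatine CD8 T cell-like cells, so that rule left few others, and a rule of at least 10 genes was added after this was seen. It marked 987 of 2494 and 790 of 2015 CD8 T cell-like cells (39.6% and 39.2%) and 220 of 913 and 81 of 346 macrophage-like cells (24.1% and 23.4%). Dividing cells are also deeper, so a cell with more UMIs is more often marked. For dividing over other cells, ratios were taken for the members only. The counts of members higher or lower in dividing cells therefore have no share over all genes beside them. Whether they are particular to the members was not tested.

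In CD8 T cell-like cells, enzymes were higher in dividing than in other cells of the same library under both rules. By the rule of 2 genes the median log2 ratio was 0.87 (13 of 15 higher, control) and 1.13 (15 of 15, creatine), and by the rule of 10 genes 0.52 (12 of 15) and 0.53 (14 of 15). By the rule of 10 genes, *Ldha* was at 659 CPM in other and 1344 CPM in dividing control cells, a ratio of 1.03 (0.99 to 1.06), and *Tpi1* at 307 and 610.1 CPM, a ratio of 0.99 (0.94 to 1.04). *Pgam1* and *Pkm* had ratios of 0.79 and 0.70, while *Aldoc* was lower in dividing cells, at −0.90 (control) and −1.16 (creatine). The hypoxia group depended on the rule, with medians of 0.45 (11 of 12 higher, control) and 0.70 (10 of 12, creatine) by the rule of 2 genes and −0.03 and 0.21 by the rule of 10. *Mif* and *Slc16a3* were higher in dividing cells in both libraries, at 0.84 and 0.70 among control cells and 0.80 and 0.96 among creatine cells. *Hilpda* had ratios of −0.38 (−0.52 to −0.23) (control) and 0.28 (0.08 to 0.48) (creatine) by the rule of 10 genes, but 1.20 and 0.68 by the rule of 2.

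In macrophage-like cells, the enzymes also depended on the rule. By the rule of 2 genes the enzyme median of dividing over other cells was −0.02 (4 of 15 higher, control) and 0.31 (11 of 14, creatine), and by the rule of 10 genes −0.11 (2 of 15) and −0.06 (5 of 14). The hypoxia group medians were −0.45 and −0.11 by the rule of 2 genes, and −0.60 and −0.32 by the rule of 10, with intervals below 0 for 12 of 14 genes (control) and 9 of 12 (creatine) by the latter. *Hilpda* was, by the rule of 10 genes, at 170.2 CPM in other and 64.8 CPM in dividing control cells, a ratio of −1.39 (−1.56 to −1.23), and *Vegfa* at 42.7 and 19.4 CPM, a ratio of −1.14 (−1.46 to −0.84). *Egln3*, *Adm* and *Ndrg1* gave −1.42, −1.12 and −0.99 there. In the creatine library *Hilpda* was at −0.96 by the rule of 10 genes and 0.08 by the rule of 2. Dividing control Treg-like cells by the rule of 10 genes had *Ldha* and *Mif* at 0.76 and 1.08 and *Hif1a*, *Pdk1* and *Slc2a3* at −1.09, −1.12 and −1.93.

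**Figure D5:**
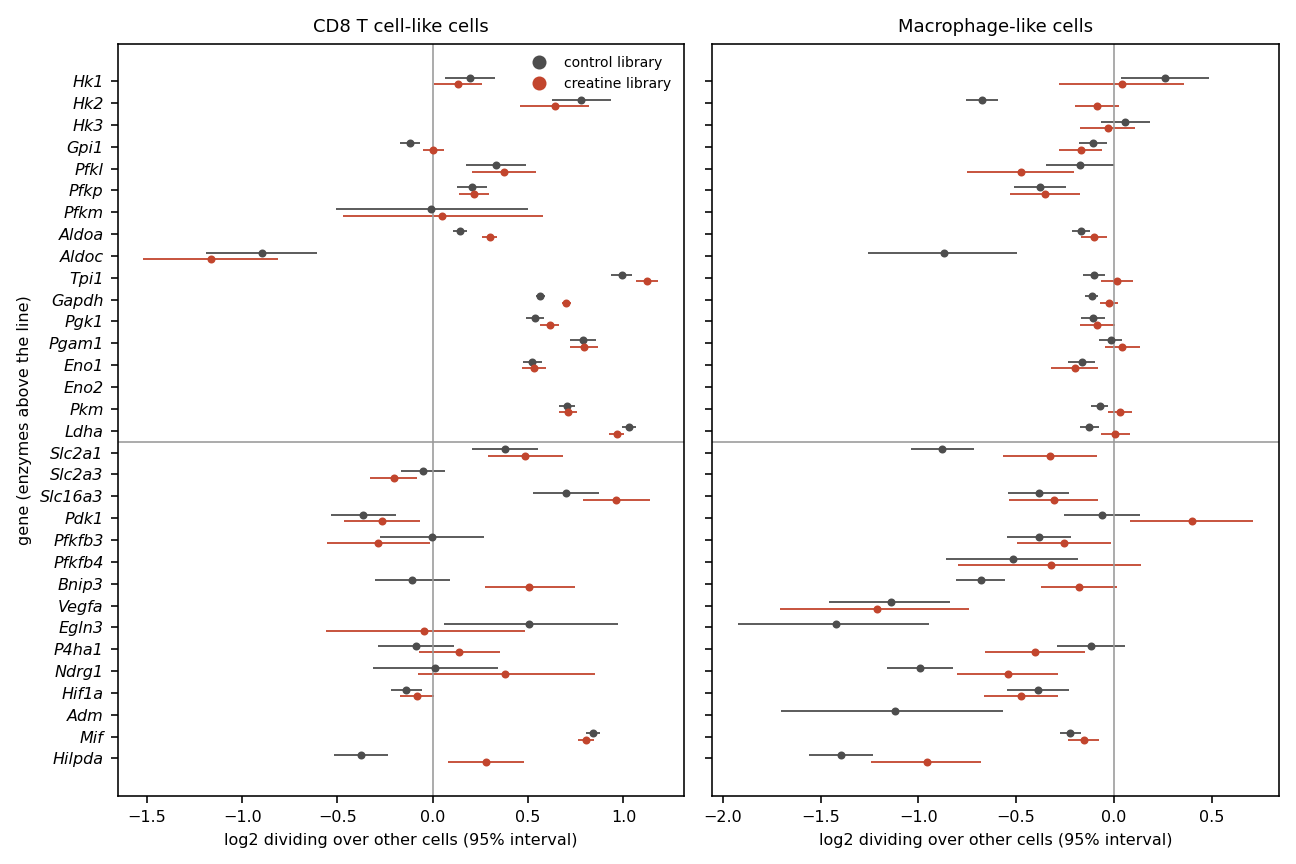
Log2 ratio of dividing cells (at least 10 of 30 cell cycle genes) over other cells of the same library for each member, in CD8 T cell-like cells (left) and macrophage-like cells (right), with grey points for the control library, red points for the creatine library and bars for 95% intervals. In CD8 T cell-like cells *Ldha* and *Tpi1* lie near 1, and in control macrophage-like cells *Hilpda*, *Egln3* and *Vegfa* lie below −1.

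The difference between the libraries was also taken within each state. Among CD8 T cell-like cells, the enzyme median of creatine over control was −0.10 in dividing cells and −0.14 in the others by the rule of 10 genes, and the hypoxia group medians were −0.22 and −0.17. Dividing macrophage-like cells gave −0.08 and −0.10 for enzymes and hypoxia group, and the others −0.14 and −0.37. Classical monocyte-like cells held 2 dividing cells by this rule in each library. The rule of 2 genes marked 261 and 331 of these cells (53.9% and 47.2%, control first), so marked cells cannot be taken as dividing. Marked cells gave −0.77 and −1.43 and the others −0.88 and −1.58. Past 1.5-fold were 10 of 14 and 11 of 13 members of the 2 groups in marked cells, beside 6.98% of all genes. In the others they were 9 of 14 and 8 of 11, beside 6.2%. In the other cells under this rule, 1 of 16 members was lower by more than 1.5-fold in CD8 T cell-like cells, beside 2.21% of all genes, and 10 of 22 in macrophage-like cells, beside 6.4%. It was 0 of 16 in NK cell-like cells, beside 1.59%, and 0 of 12 in Treg-like cells, beside 3.01%.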

How the data were processed

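The 2 single-cell 3′ libraries, control and creatine, were analysed from the deposited matrices of raw UMI counts per gene and cell, which the authors made with Cell Ranger 3.0.2 on mm10 per the labels. No column of per-sample values was left unused. The counts were read as deposited. Cells with at least 300 UMIs, 100 genes and at most 25% mitochondrial UMIs were kept, and Scrublet in scanpy 1.11.5 marked too few cells (2 and 9) to be usable, so doublets stayed in, apart from cells that met the gates of 2 lineages. Gates counted marker genes per cell, for example 3 of 5 T cell genes, 10 C1q UMIs for macrophage-like cells or 3 monocyte genes. A gated class is a range of marker levels, and names rebuilt in this way can differ from those of the study.

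UMIs were summed per type and library, since cells are not replicates. Levels carry exact 95% Poisson intervals and log2 ratios exact conditional (Clopper-Pearson) intervals, both for counting error only. Shares of cells were taken after thinning to 2000 UMIs. A difference is named from 1.5-fold and 100 UMIs. With 1 library per group no test was run. All 32 members are described, and other genes by at most the 3 highest and 3 lowest of a list. The members, lists and tests were chosen with earlier results of these data known. On simulated counts for classical monocyte-like cells (7490 genes), 100% of 2-fold changes and 0.452% of unchanged genes passed 1.5-fold, and 95.8% of intervals held the true ratio. For cDC2-like cells (3352 genes), 1.26% of unchanged genes passed. The simulated counts varied by counting error only, with no spread between cells, animals or preparations. These rates are therefore not the rates of false calls between the 2 pools.

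*Aldoa* had 2 entries, and the one with 65021 and 49651 UMIs was used. The alternatives were TMM scaling (edgeR 4.0.16, R 4.3.3), other filters, gates, weights and rules for division. Promoters came from RefSeq (GRCm38.p6) and gene spans from GENCODE M21 on GRCm38. Computing was done in Python 3.11.15 (scipy 1.17.1, pandas 2.3.3, numpy 2.4.6), with figures drawn in matplotlib 3.10.9.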

Additional observations from a re-analysis of the deposited data

Results flagged for a closer look

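*Hk3*, a hexokinase of myeloid cells, stood out because its ratio pointed in opposite directions in different cell types. The log2 ratio of creatine over control was 0.70 (0.61 to 0.79) in macrophage-like cells and 1.12 (0.57 to 1.68) in cDC1-like cells, and −0.87 (−1.41 to −0.35) in CD8 T cell-like cells. The difference between the types was not tested, since each group is 1 library. The cDC1-like value rests on 48 and 70 UMIs and the CD8 T cell-like value on 93 and 47 UMIs, control first. Macrophage markers summed to 341 and 707 CPM in cDC1-like cells, with 4 of 10 higher in the creatine library. Their part in the *Hk3* ratio was not tested. In CD8 T cell-like cells *Hk3* was at 1.95% and 0.655% of its macrophage-like level and C1q transcripts at 0.678% and 0.299% of theirs, so that RNA free in the droplets cannot be told apart from *Hk3* of these cells.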

How the results depend on the processing

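No paired analysis was possible because each group is 1 library. Single-gene ratios were retaken only for the alternatives of scaling, weights, cell filter, gate, doublet scores, shared barcodes and non-dividing cells. Where these left a value, no single-gene ratio past 1.5-fold changed sign. Pooled over them, 1457 single-gene ratios stayed within their main interval and 139 moved outside it. In non-dividing cells by the rule of 2 genes, however, 83 moved and 67 stayed. Across all alternatives run, 264 medians stayed and 24 moved. TMM scaling moved all ratios of a type by −0.07 to 0.05.

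In classical monocyte-like cells the enzyme median of −0.94 became −0.51 with MHC class II at or above 1% and −0.77 under 1%, −0.76 with a C1q UMI and −0.80 without, −0.83 from 20 UMIs, −0.71 with no filter on low counts and −0.71 without members that have a copy. The hypoxia group median of −1.42 became −0.89 with MHC class II at or above 1% and −0.92 from 1000 UMIs, where only 3 genes were left. Without members that have a copy, the cDC2-like enzyme median was −0.45. With no filter, the nonclassical monocyte-like hypoxia group median was −1.06 in place of 0.15.

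The number of members lower by more than 1.5-fold changed with the UMI limit. No share over all genes was taken for the counts of this paragraph, and genes with few UMIs can pass 1.5-fold by counting error. The counts are thus no result about the members. From 1000 UMIs it was 11 of 14 in classical monocyte-like, 4 of 5 in cDC2-like and 1 of 6 in cDC1-like cells. It was 2 of 24 in macrophage-like, 2 of 22 in CD8 T cell-like and 1 of 11 in Treg-like cells. In CD4 T cell-like, NK cell-like and nonclassical monocyte-like cells it was 0 of 4, 0 of 11 and 0 of 1. From 20 UMIs it was 7 of 24 in CD4 T cell-like, 6 of 24 in nonclassical monocyte-like and 1 of 18 in γδ T cell-like cells. With no filter it was 10 of 31 in CD4 T cell-like, 11 of 30 in nonclassical monocyte-like and 5 of 32 in Treg-like cells. It was 12 of 32 in cDC1-like, 19 of 32 in cDC2-like and 4 of 31 in γδ T cell-like cells. In CD4 T cell-like cells it was 4 of 15 with equal weight per cell and 1 of 13 without members that have a copy.

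In cells under the rule of 2 dividing genes, the number was 1 in CD8 T cell-like, 10 in macrophage-like, 0 in NK cell-like and 0 in Treg-like cells, the enzyme medians were −0.31 in CD8 T cell-like and −0.46 in macrophage-like cells, and the macrophage-like hypoxia group median was −0.56. With the rule of 10 genes, those medians became −0.14, −0.14 and −0.37, and the hypoxia group median of non-dividing Treg-like cells −0.28 in place of 0.10. With 4 genes, non-dividing macrophage-like cells gave −0.051 and −0.38, non-dividing Treg-like cells −0.44, and dividing NK cell-like cells 0.20 in place of −0.29. The value of 0.20 is a median of only 2 genes, too few for a description of the group. With division called after thinning, the enzyme median of non-dividing macrophage-like cells was −0.15 and the Treg-like hypoxia group median −0.58.

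The share with at least 2 of 7 targets was 49.0% and 22.3% (classical monocyte-like), 67.0% and 59.8% (macrophage-like) and 47.2% and 26.7% (cDC2-like) without thinning, control first. At 1000 UMIs it was 12.7% in control classical monocyte-like cells and 12.7% and 7.89% in macrophage-like cells. Of the 31 members with at least 100 UMIs in a type, 9 were highest in T cell-like cells in the creatine library. It was 5 with equal weight per cell and 14 without mitochondrial and ribosomal protein genes, and no share over all genes was taken. The cause of these shifts was not tested. Too few cells were left for a value in γδ T cell-like cells (stricter gate, highest doublet scores left out, non-dividing), nonclassical monocyte-like cells (non-dividing) and both cDC types (stricter gate, non-dividing).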

Other observations

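In the 1285 control and 881 creatine cells that met no gate, most member levels were lower in the creatine library. These cells are a mixture of types, at median depths of 3633 and 5258 UMIs, control first. The part of a different make-up of the mixture in each library was not tested. Of 15 enzymes, 14 were lower, 2 by more than 1.5-fold, with a median log2 ratio of −0.38, and all 13 hypoxia group genes with enough UMIs were lower, 6 by more than 1.5-fold, with a median of −0.55, beside a median of 0.01 over 8734 genes, of which 49.0% were lower and 4.76% by more than 1.5-fold. *Egln3* was at 19.3 and 4.73 CPM, control first, *Hilpda* at 108 and 31.9 CPM and *Vegfa* at 32.3 and 14.2 CPM. In the 309 and 196 cells that met the gates of different lineages, the medians were −0.28 and −0.37.

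Types with fewer than 50 cells in a library were left out of the comparisons above. Their enzyme medians were −0.26 in *Ccr7*+ DC-like (31 and 10 cells, 6 genes), −0.65 in pDC-like (42 and 29 cells, 5 genes), −0.60 in granulocyte-like (53 and 27 cells, 10 genes) and 0.09 in melanoma cell-like cells (14 and 9 cells, 13 genes). The hypoxia group median was −0.92 in melanoma cell-like cells (8 genes), beside 0.08 over all genes. In *Ccr7*+ DC-like, pDC-like and granulocyte-like cells it was −0.99, −1.13 and −0.56, from only 2, 1 and 2 genes. B cell-like cells (35 and 43) had no member with 100 UMIs.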
